A study of Mus musculus with 24 samples.

Results

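Mouse mammary tumours rich in T cell transcripts were compared with tumours poor in them, 8 against 8, out of 24 tumours profiled by RNA sequencing. The tumours were ranked by the level of Cd3e, which encodes a signalling chain of the T cell receptor, in CPM (counts per 1e+06 reads counted in that library). The ranking was made separately within the 12 libraries labelled KO and the 12 labelled WT. The 4 highest libraries of each label formed the T cell rich class, the 4 lowest the T cell poor class, and the remaining 8 libraries were intermediate. These classes were made from the measured RNA and are not groups of the study, which compared the genotypes.

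All tumours came from MMTV-PyMT mice, a model in which the promoter of the mouse mammary tumour virus drives the polyoma middle T oncogene in mammary epithelium. Libraries labelled KO are given the genotype SHP KO and those labelled WT the genotype SHP WT, which the Nr0b2 reads below did not bear out. SHP is the nuclear receptor protein encoded by Nr0b2, and the series' design text names the 2 colonies NR0B2-/- PyMT+ and NR0B2+/+ PyMT+. Tumours were taken at a volume of 2000 mm3 and RNA was made from frozen homogenised tissue, so each library is a mixture of tumour, immune and stromal RNA. Per the labels read here, ages, litters and the number of tumours per animal are unstated, and p-values measure the spread between these libraries.

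T cells recognise peptides shown by MHC molecules through a receptor whose alpha chain has a constant region encoded by Trac, and which signals through the invariant CD3 chains encoded by Cd3e, Cd3g and Cd3d. In tumours they are found with natural killer (NK) cells, antigen-presenting cells and, in some tumours, B cells gathered in lymphoid aggregates. In bulk RNA, more cells of a type and more RNA per cell cannot be told apart.

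The deposited files hold between 18799631 and 29557910 counted reads per library in the T cell rich class and between 18789250 and 38022182 in the T cell poor class. The label check on the targeted gene went against the labels. Nr0b2 had reads in 12 of 12 libraries labelled KO, at 0.102 to 3.78 CPM, whereas 11 of 12 labelled WT had none and the remaining library had 1 read. A count per gene does not show where in Nr0b2 the reads lie, and the labels read here do not give the deleted part, so the check does not settle the genotypes. Both classes hold 4 libraries of each label. Transcripts of luminal epithelium were abundant in both classes, with Krt8 at 783 to 1391 CPM in the rich and 979 to 1898 CPM in the poor class.

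Cd3e ranged from 0.957 to 8.64 CPM with a median of 1.81 in the rich class and from 0.146 to 0.823 CPM with a median of 0.573 in the poor class. These values chose the classes and are given as a description, without a test. A pair of libraries, KO 11 at 8.64 CPM and KO 10 at 6.47 CPM, stood apart from the other 6 rich libraries, which lay at 2.43 CPM or lower. They hold 251 and 148 of the 640 Cd3e reads of the rich class. At the borders of the classes the reads were few. KO 3 entered the rich class with 18 reads (0.957 CPM, exact 95% Poisson interval 0.567 to 1.51), and KO 8, just outside it, had 26 reads (0.934 CPM, 0.610 to 1.37). In the WT group the last rich library, WT 24, lay at 1.23 CPM (0.836 to 1.75) and WT 22, the first outside, at 1.15 CPM (0.746 to 1.70). On the poor side KO 6 lay at 0.658 CPM against 0.845 CPM in KO 7, and WT 17 at 0.823 CPM against 0.853 CPM in WT 20. The intervals of neighbours across each border overlap, so the order of libraries at the borders is within counting error. Intervals cover counting error only.

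The other chains of the receptor followed Cd3e across the classes. Cd3g ran from 2.38 to 14.9 CPM (median 3.45) in the rich and from 0.266 to 1.81 CPM (median 1.16) in the poor class. Trac ran from 1.54 to 14.04 CPM (median 2.14) and from 0.328 to 0.985 CPM (median 0.718). Neither gene overlapped between the classes, and in both the highest library was KO 11. All 7 genes of the receptor complex were higher in the rich class by the fitted log2 difference (rich minus poor, the scale of every difference given below), with a median of 2.20, which fell to 1.38 without KO 10 and KO 11.

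**Figure D1:**
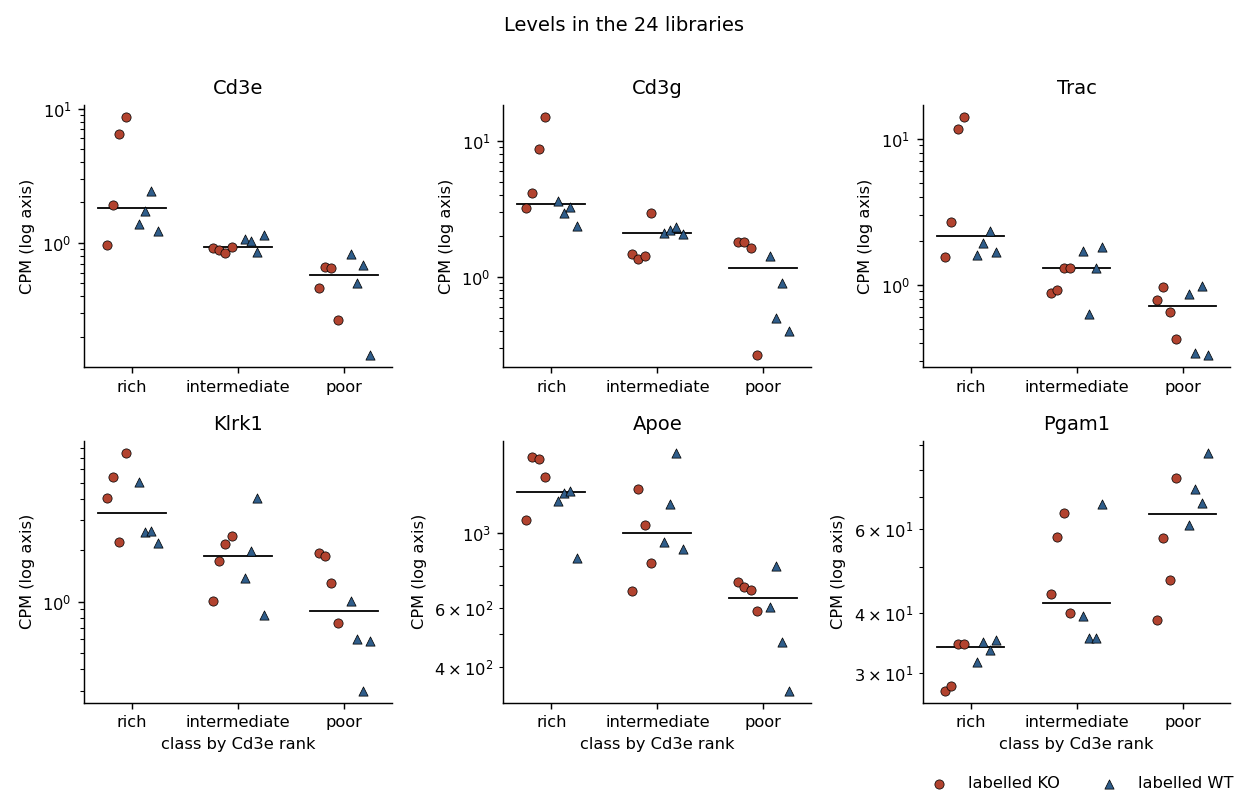
Levels in CPM on a log axis in the 8 rich, 8 intermediate and 8 poor libraries, for 3 T cell receptor genes (Cd3e, Cd3g, Trac), the NK receptor gene Klrk1, the lipoprotein gene Apoe and the glycolytic gene Pgam1. Each point is 1 library (circles labelled KO, triangles labelled WT) and the bars are class medians. Klrk1 and Apoe were higher in every rich than in every poor library, and Pgam1 was lower in every rich library (27.5 to 35.1 CPM) than in every poor one (38.7 to 86.9 CPM).

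Co-receptor and pan T cell genes are also given without a test, as they measure the same cells. Cd8a, which marks killer T cells, ran from 1.65 to 17.6 CPM (median 3.46) in the rich and 0.365 to 1.76 CPM (median 0.877) in the poor class. Only the lowest rich library, KO 3, reached into the range of the poor class. The fitted differences were 2.29 for Cd8a and 3.12 for Cd8b1, the other chain of the CD8 dimer, and 1.16 for Cd4, which marks helper T cells. The Cd4 difference was 0.44 without KO 10 and KO 11. Among the pan T cell genes, 13 of 15 with enough reads had a positive difference. The transcription factor gene Tcf7 lay at -0.81 and did not follow Cd3e between the classes. The kinase gene Lck lay at 0.68 with all 16 libraries and at -0.020 without KO 10 and KO 11. Lck was highest in KO 11 (24.1 CPM) and KO 10 (14.9 CPM), with the poor library WT 23 next (8.31 CPM).

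The stretch before the start of Cd3e, the gene that ranked the libraries, is shown because a short motif bound by ETS family transcription factors, CAGGAA, lies close to the start. The sequence is from RefSeq on GRCm38.p6, chr9:45009612-45009861, minus strand, the 250 bases before the gene's first base, 5′ to 3′. The capitals mark the match, which is on the reverse strand and begins 16 bases before the start.
Cd3e: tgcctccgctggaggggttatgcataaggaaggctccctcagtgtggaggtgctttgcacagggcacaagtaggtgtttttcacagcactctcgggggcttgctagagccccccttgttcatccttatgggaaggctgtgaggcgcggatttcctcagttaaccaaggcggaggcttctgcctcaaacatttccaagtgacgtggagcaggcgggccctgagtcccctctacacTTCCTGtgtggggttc
CAGGAA on either strand was found in 166 of the 446 promoter windows of genes higher in the rich class (37.2%), in 64 of 310 windows of genes lower in it (20.6%), in 2850 of 12372 windows of tested genes and in 25.4% of all 27025 windows in the table. A match is a description of the letters and not of binding.

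Across all genes, 1001 of the 16248 tested (6.16%) passed the threshold of an adjusted p under 0.05 in edgeR's quasi-likelihood test with the label as a block. In the rich class 606 genes (3.73%) were higher and 395 (2.43%) were lower. The 606 include 6 receptor complex, 11 pan T cell and 2 co-receptor genes, whose rise the ranking by Cd3e favoured. These genes were not removed from the promoter windows and medians taken over the 606. The risen genes had a median log2 difference of 1.32 and the fallen genes of -0.58, against -0.02 over all tested genes, and 425 rose and 63 fell by more than 2-fold. The levels of 107 tested genes (0.659%) were higher in every rich than in every poor library, and those of 6 (0.0369%) were lower in every rich library. The smallest adjusted p was 0.011 and 3791 genes had an unadjusted p under 0.05.

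The count rested on few libraries. It was 130 of 16647 (0.781%), with 111 higher (0.667%) and 19 lower (0.114%), without KO 10 and KO 11, and 123 of these were among the 1001. Each of 7 libraries lowered it by more than 1.5 times when left out: KO 3 (616), KO 6 (508), KO 11 (362), WT 13 (541), WT 14 (651), WT 16 (367) and WT 23 (434). When libraries were ranked by Trac in place of Cd3e, 12 of the 16 libraries kept their class and no gene passed (smallest adjusted p 0.0526, 2678 genes at an unadjusted p under 0.05), while all 987 of the called genes tested there kept their sign. No gene passed with scores of adipocyte and skeletal muscle genes as covariates either (smallest adjusted p 0.995, 688 genes at an unadjusted p under 0.05), and 969 of the 1001 kept their sign.

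**Figure D2:**
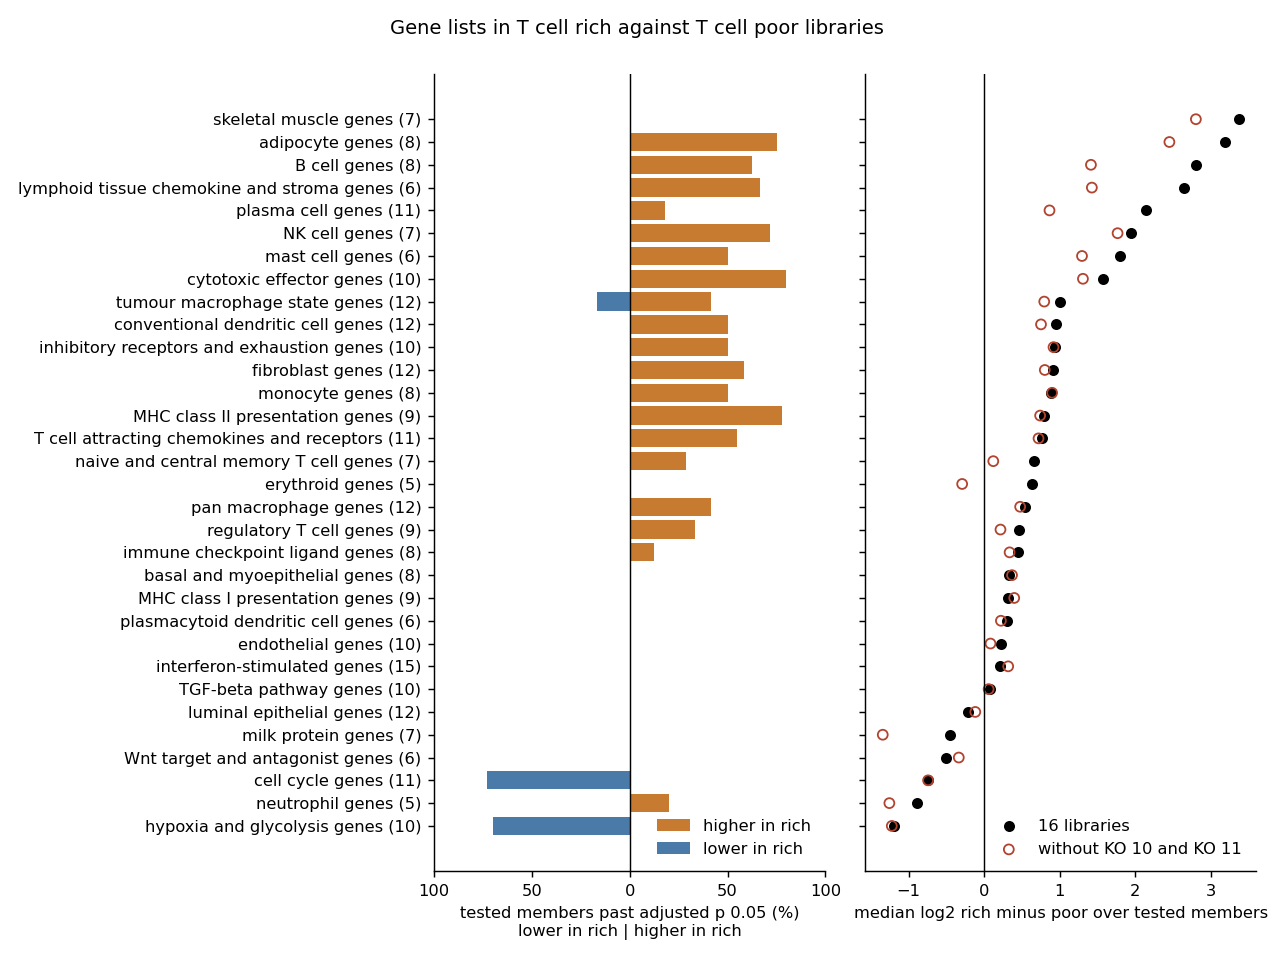
Gene lists in the rich against the poor class, with the number of tested members in brackets. Left, the percentage of tested members past an adjusted p of 0.05 in each direction. Right, the median log2 difference over tested members with all 16 libraries (filled) and without KO 10 and KO 11 (open). The bars reach furthest to the right for cytotoxic, MHC class II, adipocyte and NK cell genes and to the left for cell cycle and hypoxia genes, and interferon-stimulated and MHC class I genes have no bar. Members with too few reads are left out.

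Genes of cytotoxic lymphocytes rose in the rich class. The cytotoxic effector list marks T cells as well as NK cells, so its calls partly measure the cells that Cd3e ranked. The NK cell list shares Gzma with it and holds Klrk1, a gene also of CD8 T cells. Calls of the NK cell list are therefore not fully independent of the ranking either. Of 10 tested cytotoxic effector genes 8 rose and none fell, where 3.73% of all tested genes rose. Their median difference was 1.57 against -0.02 over all genes, and 2 more of the 12 listed had too few reads to test. Of 7 tested NK cell genes 5 rose, with a median of 1.94. Klrk1, which encodes the activating receptor NKG2D of NK and CD8 T cells, ran from 2.22 to 7.50 CPM (median 3.32) in the rich and from 0.300 to 1.94 CPM (median 0.877) in the poor class. The classes did not overlap and the difference was 1.96 ± 0.31 (SE, adjusted p = 0.011). Gzma, the gene of the protease granzyme A, ran from 1.43 to 3.89 CPM (median 2.53) and from 0.373 to 1.59 CPM (median 1.16), with a difference of 1.20 ± 0.28 (adjusted p = 0.0258). The classes overlapped for Gzma, with 6 rich libraries above all poor ones.

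Further genes of this kind rose by similar amounts. Klrb1c, which encodes the NK receptor NK1.1, rose by 1.94, the chemokine gene Ccl5 by 1.63 and the protease gene Ctsw by 1.09. Ccl5 passed in 9 of the 16 fits that each left out 1 library, with its smallest difference, 1.14, without KO 11. Gzmb, the gene of granzyme B, had a difference of 0.99 and did not pass (adjusted p = 0.0838). Without KO 10 and KO 11 no cytotoxic gene passed by edgeR, while 9 had an unadjusted p under 0.05 and the list's median was 1.31. Of the NK cell genes 3 passed there, at a median of 1.77, where 0.667% of all tested genes were higher. Klrk1 kept a difference of 2.04 (adjusted p = 0.0144). Calls of Ctsw and Klrb1c rested on few libraries, passing in 3 and 5 of 16 fits that each left out 1 library.

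Regulatory T cell genes rose in part. Both this list and the inhibitory receptor list below mark T cells. Their calls partly measure the cells that Cd3e ranked and are not independent of the classes. Of the 9 tested genes of that list 3 rose, against 3.73% of all tested genes, with a median difference of 0.46. Without KO 10 and KO 11 edgeR called 0, with 4 at an unadjusted p under 0.05, against 0.667% of all tested genes. Foxp3, the transcription factor gene that defines these cells, lies outside the rule for named genes and is given because it defines the list. It had 54 reads in the 8 rich and 19 in the 8 poor libraries, from 0.0427 to 0.826 CPM and from 0 to 0.351 CPM, too few to test. Most of the rich reads were in KO 11 (24), KO 4 (11) and KO 10 (10). Among libraries labelled WT the rich had 1 to 4 reads each and the poor 0 to 5. Itgae, which encodes an integrin of tissue-resident T cells and dendritic cells, rose by 1.09 ± 0.30 (adjusted p = 0.0453) but passed in 4 of the 16 fits that left out a library. Tnfrsf18, the gene of the receptor GITR, had a difference of 0.11. Of 10 tested inhibitory receptor genes 5 rose, at a median of 0.94, and among them Entpd1, which encodes the ectonucleotidase CD39, rose by 0.88 and passed in 9 of 16 such fits.

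Summed B cell genes were highest in 3 rich libraries. The B cell gene Ms4a1, which encodes CD20, had too few reads in most libraries to be tested. It reached 52.0 CPM in KO 11, 20.01 CPM in KO 10 and 7.97 CPM in WT 24, and lay between 0 and 0.477 CPM in the other 5 rich libraries and between 0.0365 and 0.263 CPM in the poor class. The summed CPM of the B cell list was 367, 167 and 59.8 in the same 3 libraries, next came the poor library WT 17 at 35.6, and the other 5 rich libraries lay between 8.69 and 16.5. Of the 14 listed genes 8 could be tested and 5 of them rose, with a median of 2.80, and 1 rose without KO 10 and KO 11. Among all tested genes 3.73% rose, and 0.667% did without KO 10 and KO 11.

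Cd22, a B cell inhibitory receptor gene, was higher in every rich than in every poor library. It ran from 2.10 to 29.0 CPM (median 3.08) in the rich and from 0.557 to 1.83 CPM (median 0.774) in the poor class. Its difference was 2.70 ± 0.58 (adjusted p = 0.0191), and 1.62 without KO 10 and KO 11 (adjusted p = 0.0446). Cd79b, a chain of the B cell receptor, rose by 3.89, and Ighm, the heavy chain gene of immunoglobulin M, by 2.68. Cd79b lay at 46.5 CPM in KO 11, 26.3 CPM in KO 10 and 6.51 CPM in WT 24. It lay between 0.59 and 1.54 CPM in the other rich libraries and between 0.13 and 0.79 CPM in the poor class. Ighm ran from 19.8 to 290 CPM in the rich and from 2.4 to 15.6 CPM in the poor class.

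Of 6 tested genes of lymphoid tissue chemokines and stroma 4 rose, against 3.73% of all tested genes. Without KO 10 and KO 11 edgeR called 0 of them (4 at an unadjusted p under 0.05), against 0.667% of all tested genes higher. Ccl21a, which encodes a chemokine that draws T cells and dendritic cells into lymph nodes, ran from 2.58 to 61.1 CPM (median 5.50) in the rich and from 0.0428 to 4.01 CPM (median 1.52) in the poor class, with 5 rich libraries above all poor ones. It rose by 2.51 ± 0.69 (adjusted p = 0.0441) but passed in 5 of the 16 fits that left out a library, with adjusted p up to 0.0866. Its lowest rich library was WT 24, which had high B cell levels, and KO 3, which did not, had 16.01 CPM. Ltb, which encodes lymphotoxin beta, rose by 2.80. Cxcl13, which encodes a B cell chemokine, rose by 2.03 but passed in 1 of the 16. Ccl21a reads may be shared with near-identical Ccl21 copies, so its level is uncertain.

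Genes of MHC class II presentation rose together, 7 of 9 with a median of 0.80, where 3.73% of all tested genes rose. H2-Aa, the alpha chain of the I-A molecule, ran from 287 to 659 CPM (median 496) in the rich and from 119.9 to 338 CPM (median 238) in the poor class, with 7 rich libraries above all poor ones. Its difference was 0.99 ± 0.19 (adjusted p = 0.0137), and it passed in 16 of 16 fits that left out a library. Cd74, the invariant chain, rose by 0.82, H2-Eb1 by 0.80 and H2-Ab1 by 0.69, which passed in 9 of the 16. Without KO 10 and KO 11 the list's median was 0.74 and 2 of its genes passed, where 0.667% of all tested genes were higher.

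MHC class I and interferon-stimulated genes did not pass, where 6.16% of all tested genes did by edgeR. Of 9 class I presentation genes edgeR called 0, as did DESeq2, with 0 at an unadjusted p under 0.05 and a median of 0.31. Of 15 interferon-stimulated genes both tools also called 0, with 1 at an unadjusted p under 0.05 and a median of 0.21. By edgeR H2-K1, a class I heavy chain gene, had a difference of 0.41 ± 0.31 (adjusted p = 0.457), with levels of 887 to 2901 CPM in the rich and 523 to 2118 CPM in the poor class. Iigp1, an interferon-inducible GTPase gene, had a difference of 0.63 ± 0.35 (adjusted p = 0.296). The classes overlapped widely for both, and a missed threshold does not show that their levels were equal.

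Within the tumour macrophage state list the direction differed by gene. Apoe, which encodes a lipoprotein made by macrophages among other cells, ran from 842 to 1688 CPM (median 1328) in the rich and from 339 to 798 CPM (median 639) in the poor class. It did not overlap between the classes, and its difference was 1.07 ± 0.16 (adjusted p = 0.011) with all libraries and 1.04 without KO 10 and KO 11 (adjusted p = 0.0242). Fabp5, which encodes a fatty acid binding protein, fell by 1.26, and Vegfa, which encodes the vascular growth factor and is also in the hypoxia list, fell by 2.03. Of the 12 genes of the tumour macrophage state list 5 rose and 2 fell, where 3.73% of all tested genes rose and 2.43% fell.

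Most other myeloid lists rose in part, where 3.73% of all tested genes were higher with all 16 libraries and 0.667% without KO 10 and KO 11. Of 12 pan macrophage genes 5 rose at a median of 0.54, among them the complement gene C1qb at 0.52, while C1qa, with a difference of 0.54, did not pass (adjusted p = 0.0653). Of 12 conventional dendritic cell genes 6 rose, with Irf8, a transcription factor gene of that lineage, at 0.83, which passed in 6 of 16 fits that left out a library. Of 8 monocyte genes 4 rose, with the chemokine receptor gene Ccr2 at 1.24 and the coagulation factor gene F13a1 at 1.41. Of 6 tested mast cell genes 3 rose, with the protease genes Tpsb2 and Mcpt4 at 2.12 and 2.03. Mcpt4 passed in 5 of the 16 fits and had a difference of 1.38 without KO 11, and Tpsb2 passed in 12 and had 1.49. Of 6 tested plasmacytoid dendritic cell genes edgeR called 0, with 2 at an unadjusted p under 0.05, and DESeq2 called 2. Of 5 tested neutrophil genes 1 rose, the cytokine receptor gene Csf3r by 0.71, which passed in 9 of the 16 fits. The other 4 had negative differences and did not pass. The neutrophil list's median was -0.89, and -1.25 without KO 10 and KO 11. Without KO 10 and KO 11 edgeR called 0 of the pan macrophage, conventional dendritic cell, mast cell and neutrophil genes, with 9, 8, 4 and 3 at an unadjusted p under 0.05.

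Adipocyte and fibroblast genes were also higher in the rich class. Adipoq, which encodes the fat cell hormone adiponectin, ran from 9.56 to 275 CPM (median 42.3) in the rich and from 0.656 to 21.9 CPM (median 5.02) in the poor class, with 7 rich libraries above all poor ones. Its difference was 3.40 ± 0.60 (adjusted p = 0.0122), and 2.87 without KO 10 and KO 11 (adjusted p = 0.0545). Of 8 adipocyte genes 6 rose (1 without KO 10 and KO 11, at a median of 2.45), where 3.73% of all tested genes rose (0.667% without them). Fabp4, a fatty acid binding protein gene of fat cells, rose by 3.20. The summed CPM of the list ran from 114 to 3081 in the rich and from 13.2 to 274 in the poor class, so fat tissue transcripts moved with the T cell ranking. Their part in the differences of other genes was not tested beyond the covariate fit above.

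Of 12 fibroblast genes 7 rose, with a median of 0.91, and 4 did without KO 10 and KO 11. The shares of all tested genes that rose were 3.73% and 0.667%. Col3a1, a fibrillar collagen gene, ran from 429.8 to 1559 CPM (median 944) in the rich and from 170.5 to 754 CPM (median 407) in the poor class, with 5 rich libraries above all poor ones. It rose by 0.96 ± 0.26 (adjusted p = 0.0444), but passed in 7 of 16 fits that left out a library. Col1a1 and Col1a2, which encode type I collagen, had differences of 0.59 and 0.74 and did not pass (adjusted p = 0.154 and 0.0661).

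Skeletal muscle genes varied widely between libraries. Acta1, the muscle actin gene, ran from 0.262 to 1574 CPM (median 67.8) in the rich and from 0.471 to 71.7 CPM (median 9.56) in the poor class, with the lowest and the highest value both in the rich class. Of 7 tested muscle genes edgeR called 0, with 7 at an unadjusted p under 0.05 and a median difference of 3.37, and DESeq2 called 2. The summed muscle level was 5274 CPM in KO 11 and 0.874 CPM in KO 10, the other library with high Cd3e. Of 10 endothelial genes edgeR called 0 and DESeq2 1, with 1 at an unadjusted p under 0.05 and a median of 0.22. Among all tested genes edgeR called 6.16%.

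**Figure D3:**
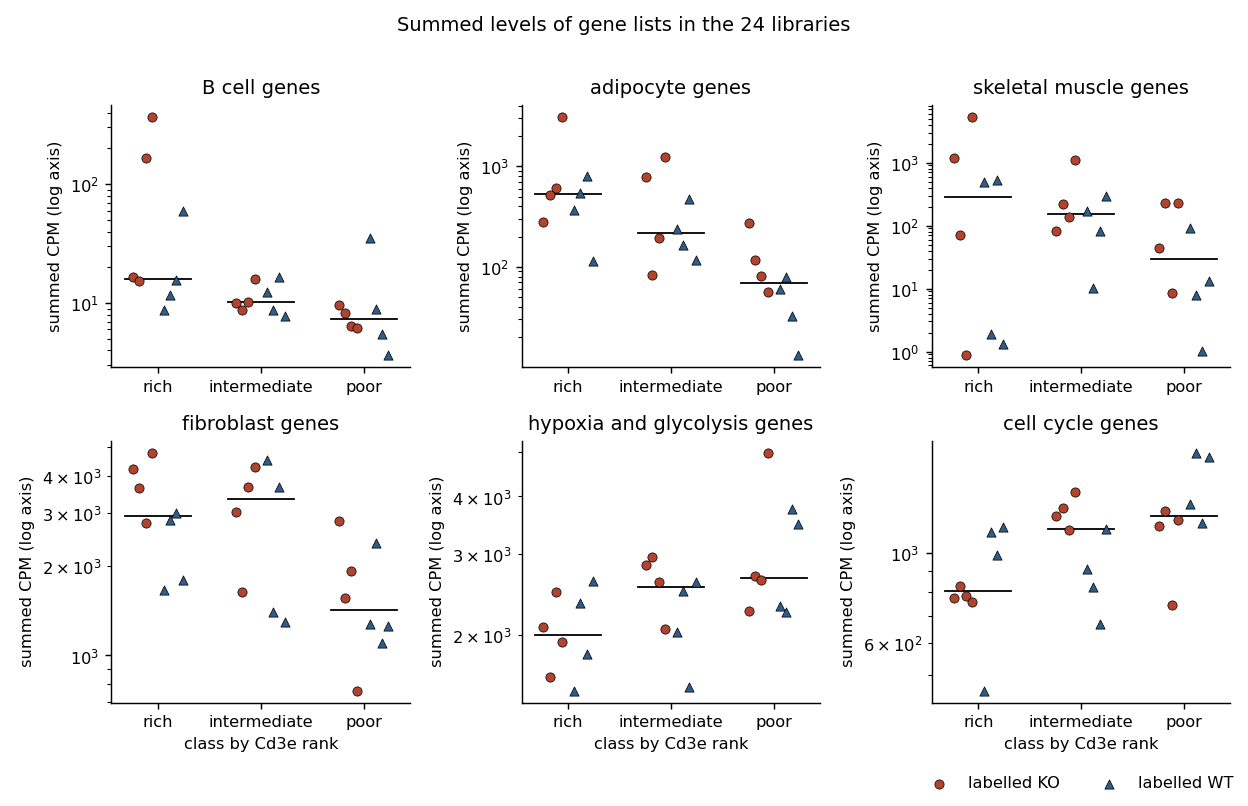
Summed CPM of 6 gene lists on a log axis in the 8 rich, 8 intermediate and 8 poor libraries (circles labelled KO, triangles labelled WT, bars class medians). B cell sums are high in 3 rich libraries (367, 167 and 59.8), adipocyte sums are above all poor libraries in 7 rich ones, and hypoxia and cell cycle sums have lower medians in the rich class (2003 and 806) than in the poor class (2658 and 1234).

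Genes of low oxygen and glycolysis fell together. Of 10 listed genes 7 fell and none rose, with a median of -1.19, where 2.43% of all tested genes fell. Without KO 10 and KO 11 the median was -1.22 and 1 of the 10 passed, with 9 at an unadjusted p under 0.05. There 0.114% of all tested genes were lower. Egln3, the oxygen-sensing prolyl hydroxylase gene that is induced in low oxygen, ran from 119 to 194 CPM (median 144) in the rich and from 159.6 to 399.7 CPM (median 292) in the poor class, and 6 poor libraries lay above all rich ones. Its difference was -0.99 ± 0.20 (adjusted p = 0.0148). Pgk1, the glycolytic phosphoglycerate kinase gene, ran from 72.3 to 118 CPM (median 90.3) in the rich and from 100.5 to 454 CPM (median 190.0) in the poor class, with a difference of -1.33 ± 0.29 (adjusted p = 0.0204).

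Vegfa and Car9, a carbonic anhydrase gene, lie outside the rule for named genes and are given, after their values were seen, as classical targets of the hypoxia-inducible factors. Vegfa ran from 21.4 to 58.5 CPM (median 37.2) in the rich and from 43.4 to 331 CPM (median 124) in the poor class, with a difference of -2.03 (adjusted p = 0.0128), and Car9 differed by -1.38 (adjusted p = 0.0299). Both classes overlapped for Vegfa, with 7 poor libraries above all rich ones. Ndrg1, a stress-response gene, fell by 1.30 but passed in 3 of 16 fits that left out a library. Ldha, which encodes lactate dehydrogenase A, had a difference of -0.33 and did not pass (adjusted p = 0.392).

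Pgam1 and Ak4, both outside the list, were also lower. Pgam1, which encodes the glycolytic phosphoglycerate mutase, ran from 27.5 to 35.1 CPM (median 33.99) in the rich and from 38.7 to 86.9 CPM (median 64.7) in the poor class, without overlap. Its difference was -1.04 ± 0.15 (adjusted p = 0.011), and -1.11 without KO 10 and KO 11 (adjusted p = 0.0112). Ak4, which encodes a mitochondrial adenylate kinase, ran from 5.20 to 12.01 CPM (median 6.44) and from 11.3 to 82.3 CPM (median 33.0), with a difference of -2.49 ± 0.40 (adjusted p = 0.0122). Slc16a3, which encodes a lactate exporter, and Adm, which encodes the vasodilator adrenomedullin, fell by 2.71 and 2.58.

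Promoters of 3 of the fallen genes and of Ldha, which did not pass, are shown because the core of the element bound by hypoxia-inducible factors, ACGTG, can be looked for in them. Each is the 250 bases before the gene's first listed start, 5′ to 3′ on the gene's strand, from RefSeq on GRCm38.p6, and capitals mark ACGTG or its reverse complement CACGT. The windows are chr12:54203875-54204124 (minus) for Egln3, chrX:106186850-106187099 (plus) for Pgk1, chr19:41911621-41911870 (plus) for Pgam1 and chr7:46845554-46845803 (plus) for Ldha.
Egln3: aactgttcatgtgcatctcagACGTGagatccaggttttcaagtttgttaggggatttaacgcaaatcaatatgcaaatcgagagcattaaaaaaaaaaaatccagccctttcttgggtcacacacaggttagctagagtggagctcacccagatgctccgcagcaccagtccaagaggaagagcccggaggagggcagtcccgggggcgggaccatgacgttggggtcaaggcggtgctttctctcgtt
Pgk1: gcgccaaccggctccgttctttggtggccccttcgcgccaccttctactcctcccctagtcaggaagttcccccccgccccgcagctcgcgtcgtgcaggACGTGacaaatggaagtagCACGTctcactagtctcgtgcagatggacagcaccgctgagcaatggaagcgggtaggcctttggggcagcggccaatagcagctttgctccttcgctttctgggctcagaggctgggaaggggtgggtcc
Pgam1: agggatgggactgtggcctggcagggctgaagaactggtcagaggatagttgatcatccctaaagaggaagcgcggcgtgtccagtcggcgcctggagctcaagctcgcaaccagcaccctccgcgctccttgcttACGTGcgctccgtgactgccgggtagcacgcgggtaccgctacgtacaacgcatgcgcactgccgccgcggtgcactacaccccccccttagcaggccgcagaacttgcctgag
Ldha: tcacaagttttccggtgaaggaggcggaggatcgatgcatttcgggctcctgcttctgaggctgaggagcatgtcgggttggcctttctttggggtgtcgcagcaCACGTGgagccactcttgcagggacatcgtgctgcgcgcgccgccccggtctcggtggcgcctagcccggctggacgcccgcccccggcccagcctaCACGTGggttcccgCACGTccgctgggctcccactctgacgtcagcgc
Egln3 has 1 match, Pgk1 has 2, Pgam1 has 1, 114 bases before the start, and Ldha has 5. In Ldha 2 pairs of matches lie on both strands of CACGTG, which is also the E-box bound by MYC and other factors. Of the 10 hypoxia and glycolysis genes 9 had a window in the table and 7 of those held ACGTG, Bnip3 and Ldha among them, which did not pass. Vegfa and Pdk1 held none in this window. The motif was in 83 of 310 windows of all genes lower in the rich class (26.8%), in 67 of 446 windows of genes higher in it, in 20.8% of the 12372 windows of tested genes and in 16.6% of all 27025 windows.

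Cell cycle genes were lower in the rich class. Of 11 listed genes 8 fell and none rose, with a median of -0.74, where 2.43% of all tested genes fell. Without KO 10 and KO 11 the median was again -0.74 and edgeR called 0, with 11 at an unadjusted p under 0.05. Top2a, the DNA topoisomerase gene of dividing cells, ran from 85.1 to 225 CPM (median 143) in the rich and from 138 to 416 CPM (median 242) in the poor class, with 5 poor libraries above all rich ones. Its difference was -0.74 ± 0.17 (adjusted p = 0.0244). Ccna2, the cyclin A2 gene, fell by 0.63 but passed in 4 of 16 fits that left out a library. Mki67, which encodes the proliferation marker Ki-67, ran from 127 to 423 CPM (median 247) and from 235 to 612 CPM (median 365), and by edgeR its difference of -0.53 ± 0.19 did not pass (adjusted p = 0.098). Pcna, the DNA polymerase clamp gene, had a difference of -0.42 (adjusted p = 0.0554).

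Markers of the tumour epithelium did not pass. Of 12 luminal, 8 basal and 7 milk protein genes edgeR called 0, where it called 6.16% of all tested genes. At an unadjusted p under 0.05 were 3, 2 and 1 of them, and the medians were -0.22, 0.33 and -0.45. DESeq2 called 0, 2 and 1 of them. Krt8, a luminal keratin gene, had a difference of -0.50 (adjusted p = 0.105) and Epcam, an epithelial adhesion gene, of -0.08 (adjusted p = 0.697).

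The 10 largest rises outside the lists were between 3.85 and 5.23. Pck1, which encodes the gluconeogenic enzyme PEPCK and is active in fat, rose by 4.07 ± 0.64, and Cyp2e1, a cytochrome P450 gene, by 4.09 ± 0.63, both at an adjusted p of 0.011. Slc36a2, an amino acid transporter gene, and Ces1f, a carboxylesterase gene, each rose by 4.24, without overlap between the classes. Timd4, which encodes the phosphatidylserine receptor TIM-4 of resident macrophages, rose by 4.29 and H2-Q10, a class I-like gene, by 3.85. The other 4 of the 10 largest rises were Mylk4 (5.23), Otos (4.74), Paqr9 (4.54) and A530016L24Rik (3.96). Some of these rises rested largely on a single rich library, with 5562 Mylk4 reads in KO 11 and 2280 Otos reads in WT 13. Without KO 11 the differences of Mylk4, Paqr9, Timd4 and H2-Q10 were 3.18, 2.91, 2.67 and 2.60. That of Otos was 2.88 without WT 13. Mylk4 and Otos each passed in 4 of 16 fits that left out a library, Paqr9 and Timd4 in 16 and H2-Q10 in 15. H2-Q10 is a member of a family of near-identical genes, and its level is uncertain.

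Some of the largest falls outside the lists rested on a single poor library. Krt16, a stress keratin gene, ran from 0.0397 to 0.266 CPM (median 0.171) in the rich and from 0.215 to 99.9 CPM (median 0.840) in the poor class, with the highest value in KO 12. Klk6, a kallikrein protease gene, reached 81.4 CPM in KO 12 and had a median of 0.813 CPM in the poor class. Atp7b, a copper transporter gene, reached 68.4 CPM in WT 17 and had a median of 0.794 CPM there. They fell by 5.50, 5.46 and 4.27. Without the library named the differences were -2.27, -2.51 and -2.44, and that of Klk6 did not pass (adjusted p = 0.0864). Over the 16 fits that each left out a library, Krt16 passed in 10, Klk6 in 8 and Atp7b in 8. Fstl4 (-4.52), Adm2 (-4.14), Mab21l4 (-3.75) and Pappa (-2.30) complete the 10 largest falls with Slc16a3, Adm and Ak4. Without KO 12 the differences of Fstl4, Adm2 and Mab21l4 were -3.05, -2.14 and -2.19. Mab21l4 passed in 6 and Pappa in 9 of 16 fits that left out a library.

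The genes with the smallest p-values that are given here had differences of 0.59 to 1.98 in size. Serping1, which encodes the C1 inhibitor of complement, rose by 1.53 ± 0.23, Ly86, a partner of the receptor RP105 on antigen-presenting cells, by 0.88 ± 0.13, and Fcgr2b, the inhibitory Fc receptor gene, by 0.88 ± 0.13. C1qtnf2, which encodes a secreted C1q-like protein, rose by 1.60 ± 0.24 and Cpxm1, a carboxypeptidase-like gene, by 1.04 ± 0.16. On the other side the desmosome gene Dsg3 fell by 1.98 and the nucleolar genes Nop58 and Nol10 by 0.61 and 0.59. All 8 of these also passed without KO 10 and KO 11.

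The genes outside the lists whose levels were most like Cd3e over all 24 libraries were chosen by Spearman's rank correlation of log2 CPM. They were Stat4 (0.866), Pkib (0.844), Gimap3 (0.828), Sh2d2a (0.823), Ms4a4b (0.817), Tnfaip8l2 (0.813), Ikzf3 (0.809) and Kynu (0.801). The correlations are descriptions, since the points share the libraries' depth and mixture of cells. Gimap3, a GTPase gene of lymphocytes, ran from 2.61 to 27.2 CPM (median 4.62) in the rich and from 0.401 to 1.49 CPM (median 0.924) in the poor class, and lay between 0.915 and 4.97 CPM in the intermediate libraries. Stat4, the transcription factor gene of interleukin-12 signalling, had a difference of 1.66 and Kynu, a tryptophan-degrading enzyme gene, of 1.06.

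The comparison was also made within each label, where 4 libraries stand against 4. By edgeR no gene passed in the libraries labelled KO (0 of 15698, 2291 at an unadjusted p under 0.05, 14.6%) or in those labelled WT (0 of 16107, 2341 at an unadjusted p under 0.05, 14.5%). DESeq2 called 679 and 605. The 2 comparisons share no library. Of the genes higher at an unadjusted p under 0.05 in KO, 83.4% were also higher in WT, against 49.4% of all genes tested in both, and of those lower in KO 87.5% were also lower in WT, against 50.6%. Genes past the unadjusted threshold on both sides numbered 469 higher (32.8% of the KO and 43.8% of the WT genes) and 273 lower (35.3% and 22.8%), and 12 genes passed in opposite directions, 6 each way.

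The test of whether the class difference depended on the label called 0 of 16872 genes by edgeR (762 at an unadjusted p under 0.05, 4.52%) and 4 by DESeq2. For the main genes the differences in KO and WT were 1.64 and 2.31 for Klrk1, 1.15 and 0.86 for H2-Aa, 1.06 and 1.09 for Apoe, 3.16 and 3.67 for Adipoq, -1.12 and -0.84 for Egln3 and -0.94 and -1.11 for Pgam1. Cd4 differed by 2.25 in KO and 0.08 in WT, where the KO value includes KO 10 and KO 11, and by edgeR the difference between them did not pass (adjusted p = 0.927).

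**Figure D4:**
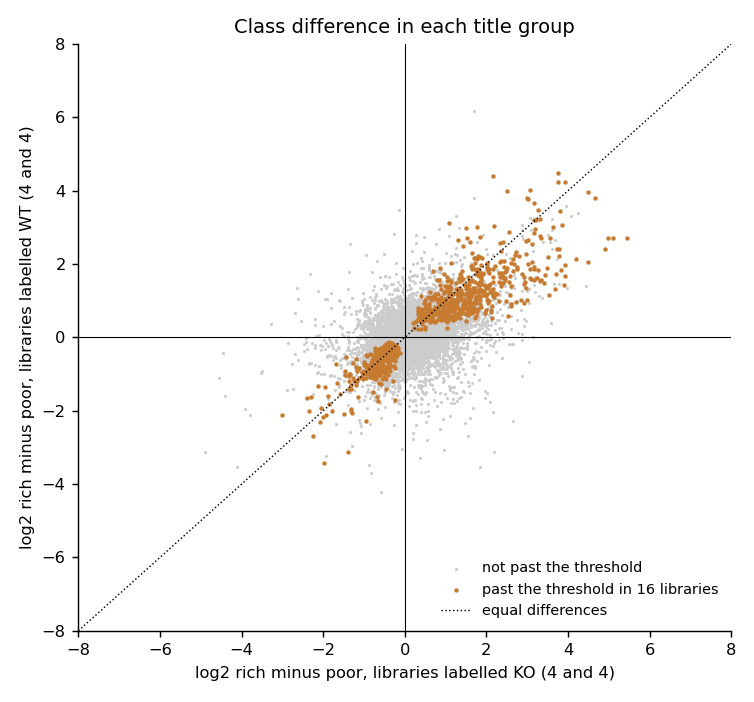
Log2 difference between the T cell rich and poor class in libraries labelled KO (x axis, 4 against 4) and WT (y axis, 4 against 4), for 15438 genes tested in both. Orange points are the 934 of them past the threshold in all 16 libraries, and the dotted line marks equal differences. The orange points lie in the lower left and upper right, a direction that their selection in the joint fit favours.

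The 8 intermediate libraries took no part in the fit. On the median over the 606 risen genes (log2 of CPM + 0.5, centred within the label), they lay between -0.31 and 0.58 with a median of -0.10, between the rich class (-0.02 to 1.47, median 0.38) and the poor class (-0.97 to -0.34, median -0.46). For the 395 fallen genes the medians were 0.08 in the intermediate, -0.23 in the rich and 0.27 in the poor class. Pgam1 had a median of 41.9 CPM, Apoe of 1001 CPM and Klrk1 of 1.86 CPM in the intermediate libraries, each between the medians of the classes, whereas the median of Col3a1, 1058 CPM, lay above that of the rich class.

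Among the intermediate libraries themselves the genes did not follow Cd3e. Only 119 of the 997 called genes tested there (11.9%) had a slope on Cd3e of the same sign as their class difference, against 36.7% of the genes not called. Cd3e spanned 0.845 to 0.934 CPM in the 4 KO and 0.853 to 1.15 CPM in the 4 WT libraries, a range within the counting error of each. The share was 35.7% without WT 20, which had the lowest Cd3e of its 4 libraries and the highest level of the risen genes (0.58), and 25.8% without WT 22.

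**Figure D5:**
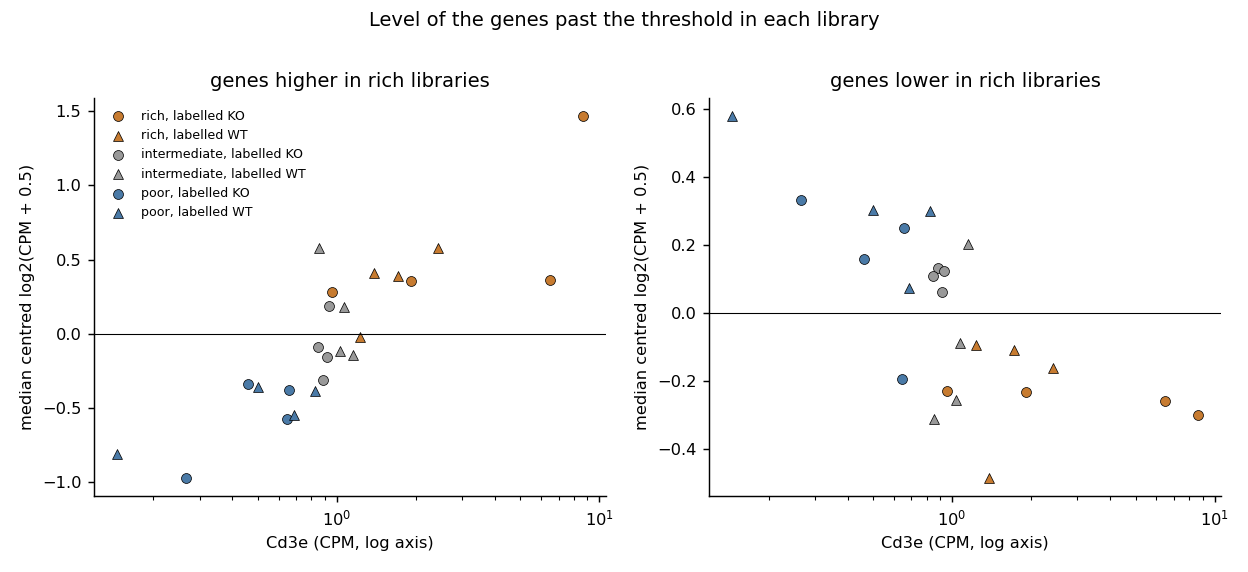
Median level of the 606 genes higher (left) and the 395 genes lower (right) in the rich class, as log2(CPM + 0.5) centred within the label, against Cd3e in CPM on a log axis, 1 point per library (circles labelled KO, triangles labelled WT). The rich and poor libraries were used to choose the genes, and the 8 grey intermediate libraries were not. On the left KO 11 stands apart at 1.47 and the intermediate library WT 20 reaches 0.58 at a Cd3e level of 0.853 CPM.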

How the data were processed

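Counts are the authors' deposited whole-number reads per gene, 24 files of 46318 gene IDs, made with featureCounts 2.0.0 on a GRCm39 annotation per the file headers. The kit was stranded per the labels' protocols, but the headers record no strand setting, so reads of a gene and an overlapping or antisense neighbour may be mixed. STAR and Subread are named, without versions, in the submitters' processing notes. The authors' deposited table of their genotype comparison, with log2 fold changes, p-values and an F score, was used only for symbols; symbols came from RefSeq for 44749 IDs and from that table for 13.

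CPM used file totals (18789250 to 38022182 reads). After filterByExpr and TMM scaling, the test was that of edgeR 4.0.16 in R 4.3.3 (quasi-likelihood, two-sided, Benjamini-Hochberg over all tested genes, label as block). A log2 difference is followed by its SE, from the F statistic. A gene rose or fell where its adjusted p was under 0.05. A gene that passed the read filter through the rich class alone had to differ, so counts over tested members describe a list and do not support it. The members and gene lists were chosen with earlier results of these data known.

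Named genes were Cd3e, Cd3g, Trac and Nr0b2, up to 4 members per list by mean CPM (a selection of them is printed), the 10 largest rises and falls and 5 smallest p-values in each direction outside the lists at a mean of at least 1 CPM, and 8 genes most like Cd3e. The rule also takes interaction genes, left out here as none passed by edgeR. Genes outside the rule are marked where they are given. An item that the rule names is not reported here.

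Alternatives were RLE and upper quartile scaling, 2 other filters, DESeq2 1.42.0, limma 3.58.1 voom, no block, 3 or 6 libraries per class and label, Cd3e as a continuous term, other ranking genes, covariates, other thresholds and leaving out libraries; those without KO 10 and KO 11, and also without WT 24, were added after seeing the data. On simulated counts for the 8 against 8 comparison over 16113 genes, 16 of 50 changes of 1.5-fold, 31 of 50 of 2-fold, 43 of 50 of 4-fold and 48 of 49 of 8-fold came back past the threshold beside 11 false calls. Simulating no change gave 0 calls. Promoter windows came from RefSeq on GRCm38.p6 and were not joined to coordinates of the count files.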

Additional observations from a re-analysis of the deposited data

Results flagged for a closer look

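In a class of 8 libraries a value was taken as standing apart where its gap to the next library was a larger share of the class's range than Dixon's 95% critical value. This was checked in both classes for 31 genes and list sums, 62 groups in all, and 14 met it. Chance gives about 1 in 20 for independent, normally distributed values, a share that these counts are not set against, since CPM are right-skewed, some genes were picked for large falls and some sums contain genes also counted singly. The library KO 11 accounted for 9 of these, all in the rich class.

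In the T cell rich class KO 11 held the highest Cd8a at 17.6 CPM (next library 8.56), Ms4a1 at 52.0 CPM (next 20.01), Cd22 at 29.0 CPM (next 13.6) and Ccl21a at 61.1 CPM (next 22.2). It also held the highest Adipoq at 275.5 CPM (next 78.6) and Acta1 at 1574 CPM (next 347). The same library was highest for the summed levels of B cell genes at 366.5 CPM (next 166.5), adipocyte genes at 3081 CPM (next 802) and skeletal muscle genes at 5274 CPM (next 1179). T cell, B cell, fat and muscle transcripts were thus all highest in 1 tumour sample, and their separate parts in the class difference were not tested.

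In the T cell poor class KO 12 was highest for Krt16 at 99.9 CPM (next 1.42) and Klk6 at 81.4 CPM (next 3.83), and WT 17 for Atp7b at 68.4 CPM (next 4.74). WT 17 was also highest for the summed B cell genes at 35.6 CPM (next 9.64), and KO 1 for the summed adipocyte genes at 274.4 CPM (next 118).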

How the results depend on the processing

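The 1001 called genes (606 higher, 395 lower) became 973 with RLE scaling and 760 or 743 with a stricter or no filter. The count was 2018 with DESeq2 (1096 higher, 922 lower), 1516 with voom (718 and 798), 830 with upper quartile scaling (632 and 198), 323 with 3 libraries per class and label (297 and 26), and 3062 with Cd3e as a continuous term over 24 libraries (1416 and 1646). It was 0 with 6 per class and label (smallest adjusted p 0.0979, 2585 genes at an unadjusted p under 0.05), 0 when ranked by Trac, 0 when ranked by Cd3d, Cd3g, Cd247 and Trac (0.0664, 2961 genes), 0 with adipocyte and muscle covariates and 0 at an adjusted p of 0.01. It was 2012 at 0.1, 362 without KO 11, 130 without KO 10 and KO 11, and 227 without those and WT 24 (208 and 19). Leaving out each library gave 362 to 1203 calls. The causes were not tested.

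DESeq2 called 679 genes in KO, 605 in WT and 4 in the interaction, where edgeR called 0, and leaving out each library gave 0 to 2 in WT and 0 in KO and the interaction. The same-sign share in the intermediate libraries was 11.9%, 26.7% by Spearman correlation and 8.46% to 35.7% leaving out each library.

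Among the named genes, signs turned with the covariates for Tcf7 (0.21), Cd4 (-0.10), Ndrg1 (0.26), Ldha (0.12) and Klk6 (0.72), and for Lck without KO 10 and KO 11 (-0.020) and without WT 24 as well (-0.015). No paired analysis was possible because the labels number KO libraries 1 to 12 and WT libraries 13 to 24. Depth limits Cd3e to 4 to 251 reads per library, and a count of 0 allows up to 0.0789 to 0.160 CPM.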

Other observations

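Lists with no place in the comparisons above differed in their share of calls, where 3.73% of all tested genes were higher and 2.43% lower in the rich class. By edgeR 0 of 10 TGF-beta pathway genes passed (median log2 difference 0.08, 3 at an unadjusted p under 0.05, 2 by DESeq2). The same count was 0 for 6 tested Wnt target and antagonist genes (-0.51) and 5 erythroid genes (0.63), with 0 at an unadjusted p under 0.05 and 0 by DESeq2. Of 7 naive and central memory T cell genes 2 rose, at a median of 0.66, and 0 did by edgeR without KO 10 and KO 11, where the median was 0.12 and 4 had an unadjusted p under 0.05. Of 3 tested gamma delta T cell genes edgeR called 0 (median 0.99, 2 at an unadjusted p under 0.05) and DESeq2 called 1. The naive and gamma delta lists mark T cells and partly measure the cells that Cd3e ranked. Of 8 tested immune checkpoint ligand genes 1 rose (0.45), and of 11 tested plasma cell genes 2 rose (2.14).

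Of 11 tested genes for chemokines that attract T cells and their receptors 6 rose, at a median of 0.77. Milk protein sums ran from 3693 to 62862 CPM over the 24 libraries, with the highest value in an intermediate library. Nr0b2 had 18 reads in the 4 rich and 108 in the 4 poor libraries labelled KO, of which 71 were in 1 poor library.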
